A study of Mus musculus with 15 samples.

Results

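The genes described here are 36 genes of cholesterol and fatty-acid synthesis, listed by symbol by their place in the pathways, with earlier results of these data known, and looked up in the union of 4 deposited expression tables. Of the 36, 34 were among the 11551 genes of the union, and the isoprenoid-pathway genes Hmgcs1 and Ggps1 were not analysed here. The 34 genes fall into 5 regulators, 6 enzymes of the mevalonate and isoprenoid arm, 11 enzymes that make squalene and turn it into cholesterol, 1 sterol carrier, 10 genes of fatty-acid synthesis, elongation and desaturation, and 1 gene of fatty-acid oxidation. A gene is in the union because it passed the authors' own threshold in at least 1 of the tables.

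RNA sequencing of total RNA was done on 15 libraries of Abelson pre-B cells, a mouse line of early B cells that the viral Abl oncogene turned cancerous, at passage 10 to 15. Imatinib, which inhibits the Abl kinase, was present in every culture for 48 h, so no library is free of it. Rag -/- cells with a SPIC construct under tetracycline control, SPIC being an ETS-family transcription factor, make up 3 groups. Rag_SPIC_noDOX had no agent and no short hairpin RNA, Rag_SPIC_DOX had DOX (doxycycline, which turns such constructs on), and Rag_SPIC_DOX_shBCLAF1 had DOX and the hairpin shBCLAF1. The other groups are Art -/- cells, for which no SPIC construct or agent is named: Art had no hairpin and Art_shBCLAF1 had that hairpin. Each group has 3 libraries. No control hairpin is named in the labels, and the sources used here do not say whether a group's libraries came from separate cultures, so p-values cover no more than the spread among these libraries. They also do not say what drives the hairpin or whether a line is 1 clone.

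Cells make cholesterol from acetyl-CoA through mevalonate, isoprenoid diphosphates, squalene and lanosterol, and they make fatty acids from the same acetyl-CoA. Transcription of both pathways is driven by SREBP proteins, membrane-bound factors that SCAP carries from the endoplasmic reticulum to the Golgi for cleavage when sterols are low, and that INSIG proteins hold back when sterols are high. SREBP-2, the product of Srebf2, acts mainly on sterol genes, and SREBP-1, the product of Srebf1, mainly on fatty-acid genes. Dividing lymphocytes are known to raise both pathways to build membranes.

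The effective library sizes ran from 5.81 to 27.1 M reads. Art replicate 3 was the smallest library and stood apart from the others of its group, with 145 genes at 0 reads against 19 to 56 elsewhere. The B-progenitor markers were all found (12 of 12), at 6070 to 13700 summed CPM per library, lowest in Art_shBCLAF1 and highest in Art. Of the markers of other cells, 5 of 6 myeloid genes were listed, at 11.0 to 51.5 summed CPM with the top value in Rag_SPIC_DOX, 3 of 3 plasma-cell genes at 138 to 302, 1 of 4 erythroid genes at no more than 1.12 and 0 of 5 T-cell genes. The part of these markers in the results was not tested. In bulk RNA, fewer cells of a type and less RNA per cell cannot be told apart. Bclaf1 mRNA was not lower in the libraries labelled shBCLAF1: its mean was 7.73 log2 CPM in Rag_SPIC_DOX and 8.04 in Rag_SPIC_DOX_shBCLAF1, and 7.32 in Art (6.41 in replicate 3) and 8.32 in Art_shBCLAF1. Spic mRNA was at a mean of 0.82 log2 CPM in Rag_SPIC_noDOX, 4.21 in Rag_SPIC_DOX and 7.46 in Rag_SPIC_DOX_shBCLAF1, and at 0.44 in Art and 4.54 in Art_shBCLAF1. An effect of the hairpin label and one of the Spic level cannot be told apart in any comparison below that includes a labelled group. Every direction given for shBCLAF1 is that of the label.

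Values are log2 CPM, the log2 of read counts, raised by 0.5, over the effective library size. They allow a gene to be compared between libraries, not with another gene, since they are not scaled to gene length. Differences are log2 fold changes, the mean of the group named first minus the mean of the other, with limma's standard error (SE). A gene is said to have risen or fallen where its p-value in limma, adjusted by Benjamini-Hochberg over all 11551 genes, was below 0.05. Each of these genes had already passed the authors' own threshold in at least 1 of their comparisons of the same libraries. The adjusted p-values may therefore be too small, and a share over all genes is a share of genes already called in some comparison.

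With doxycycline and no hairpin, 9 of the 34 genes rose, 1 fell and 24 did not pass. No group had DOX without the SPIC construct, so an effect of the drug and one of SPIC induction cannot be told apart. Over all genes, 3.16% were called higher and 8.67% lower in Rag_SPIC_DOX against Rag_SPIC_noDOX. The median log2 fold change was 0.45 over the 34 genes and 0.005 over all genes. The genes that rose were Srebf2, Insig1, Sqle, Cyp51, Msmo1, Nsdhl, Ebp, Stard4 and Acly, and the 1 that fell was Cpt1a. This count moved with single libraries, and the count over all genes moved with it. It was 24 without Rag_SPIC_DOX replicate 2, 2 without Rag_SPIC_DOX replicate 3, and 1, 3 and 1 without Rag_SPIC_noDOX replicates 1, 2 and 3, while the calls over all genes in both directions (365 higher and 1002 lower with every library in) numbered 4569, 58, 12, 401 and 15. Insig1 alone was called in all 6 of the fits that left out 1 library. The median of the 34 genes was between 0.25 and 0.62 in those fits.

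With the hairpin label added to doxycycline, 23 of the 34 genes rose, 4 fell and 7 did not pass. Over all genes, 28.5% were called higher and 25.1% lower in Rag_SPIC_DOX_shBCLAF1 against Rag_SPIC_DOX. The median was 0.73 over the 34 genes and 0.05 over all genes. The 4 that fell were Insig2, Tm7sf2, Acss2 and Elovl5. The number that rose was 15 without Rag_SPIC_DOX_shBCLAF1 replicate 3 and 15 without Rag_SPIC_DOX replicate 3. Of the 27 calls, 18 were made in each of the fits that left out 1 library; the other calls were those of Acat2, Sqle, Lss, Cyp51, Tm7sf2, Dhcr7, Acly, Scd1 and Fads1.

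In the Art line, 27 of the 34 genes rose with the hairpin label, 2 fell and 5 did not pass. Over all genes, 25.0% were called higher and 24.1% lower in Art_shBCLAF1 against Art. The median was 1.36 over the 34 genes and 0.05 over all genes. Tm7sf2 and Acss2 fell, and Scap, Insig2, Mvd, Hsd17b7 and Elovl5 did not pass. Of the 29 calls, 25 were made in each of the fits that left out 1 library, the exceptions being Mvk, Fdft1, Ebp and Acss2. Without Art replicate 3, 30 rose and 3 fell, and without Art_shBCLAF1 replicate 3 the 1 gene that fell was Tm7sf2.

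The comparisons for the hairpin label in the Rag and Art lines share no library. In both, 21 of the 34 genes rose and 2 fell, Tm7sf2 and Acss2, and limma called 0 in opposite directions. Over all genes, 13.0% rose in both, 11.5% fell in both and 4.23% were called in opposite directions. The 21 genes are Srebf1, Srebf2, Insig1, Acat2, Idi1, Sqle, Lss, Cyp51, Msmo1, Ebp, Sc5d, Dhcr7, Stard4, Acly, Acaca, Fasn, Scd1, Scd2, Elovl6, Fads1 and Fads2, so every arm of synthesis is among them.

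All 34 genes passed in Rag_SPIC_DOX_shBCLAF1 against Rag_SPIC_noDOX, 29 higher and 5 lower, with a median of 1.28 against 0.02 over all genes. Over all genes 41.0% were called higher and 38.7% lower. This comparison spans doxycycline and the hairpin label together and shares its libraries with the first comparisons. The 5 that fell were Insig2, Tm7sf2, Acss2, Elovl5 and Cpt1a, and each of the 34 calls was made in each of the 6 fits that left out 1 library. Between the lines without DOX or hairpin, which again use the Rag_SPIC_noDOX libraries, Art against Rag_SPIC_noDOX, Insig1 and Scd1 were higher in Art, Scd2 and Cpt1a were lower, and 30 genes did not pass. Over all genes 2.58% were called higher and 2.56% lower, and the median was 0.09 over the 34 genes and -0.03 over all genes. Without Art replicate 3 there were 10 higher and 7 lower. Without Art replicate 1 or 2 or any 1 Rag_SPIC_noDOX library, limma called 0 of the 34, with between 2 and 4 higher and between 2 and 3 lower at an unadjusted p below 0.05.

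**Figure D1:**
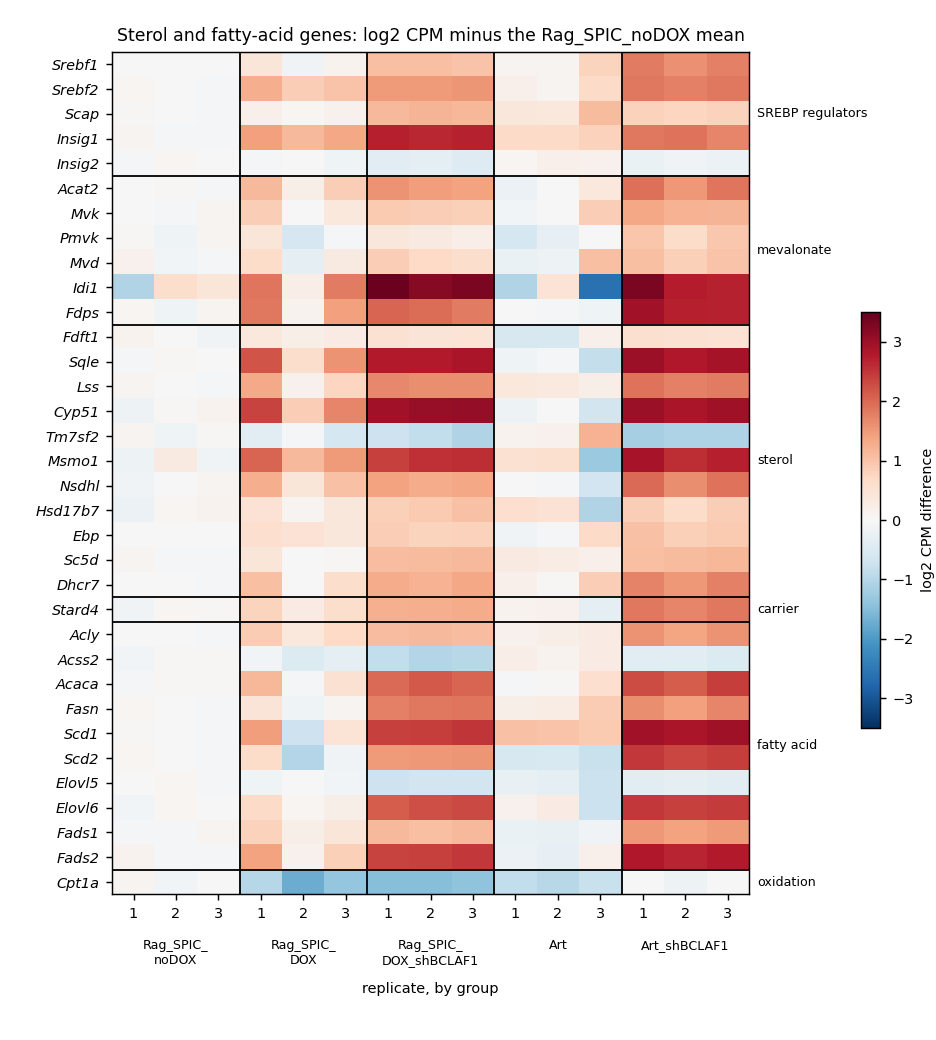
Heat map of the 34 genes (vertical, by pathway arm) in the 15 libraries (horizontal, by group and replicate), coloured by log2 CPM minus the mean of Rag_SPIC_noDOX. For 29 genes (85.3%, against 48.3% of all genes) the highest group mean is that of a labelled group. Rag_SPIC_DOX replicate 2 is below replicates 1 and 3 in 30 genes.

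By group mean, 23 of the 34 genes (67.6%) had their highest level in Art_shBCLAF1, against 27.1% of all genes. In Rag_SPIC_DOX_shBCLAF1 6 (17.6%) had theirs, below the 21.2% of all genes. Together the labelled groups held the highest level of 85.3%, against 48.3% of all genes. The lowest mean was in Rag_SPIC_noDOX for 16 genes (47.1%, against 15.7% of all genes). It was in Art for 13 (38.2%, against 30.0% of all genes). In the heat map of single libraries the Rag_SPIC_DOX libraries are unequal among themselves, and replicate 2 is the lowest of all 15 libraries for Srebf1, Mvd, Fasn, Scd1, Scd2 and Cpt1a.

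Promoter sequence was available from RefSeq (assembly GRCm38.p6, a later build than the mm9 of the submitters' processing notes) for 27 of the 34 genes, as windows from 250 bases before to 50 bases after a gene's start. Elements known from sterol-regulated promoters were searched on both strands: the sterol regulatory element as TCACNCCAC, an E-box form bound by SREBP-1 as TCACNTGA, the CCAAT box bound by NF-Y, and the GC box GGGCGG bound by Sp1. ATTGG, which is CCAAT read on the other strand, can share its last bases with GGGCGG, and such matches were counted for both. Of the 27 genes, 5 have more than 1 window, and a gene was counted if any of its windows matched. The share of all windows counts single windows, so it is not a share of genes. CCAAT was in a window of 22 of 27 genes (81.5%), against 43.2% of the 9102 genes of the tables that have a window and 37.4% of all 32851 windows. GGGCGG was also in 22 of 27 (81.5%), against 68.4% and 35.7%. TCACNTGA was in 1 of 27, Insig2, against 4.99% and 4.18%, and TCACNCCAC was in 0 of 27, against 1.42% and 1.24%. A match is a run of letters and not a shown binding site, and the lack of one concerns only these letters in this window.

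Of the 9 genes that rose with doxycycline, 7 have a window, and in 6 of them a CCAAT box lies before the start. The box is not particular to genes that rose, since 22 of all 27 genes with a window (81.5%) have CCAAT in a window. Among the 22 are Cpt1a, which fell with doxycycline, and Insig2, Tm7sf2, Acss2 and Elovl5, which fell with the label in Rag cells. The stretches that hold the boxes of the 6 genes are printed because these genes rose together with doxycycline. They run 5′ to 3′ on the gene's own strand, and capitals mark CCAAT or ATTGG, its form on the other strand.
Cyp51 (chr5:4104702-4104746, - strand): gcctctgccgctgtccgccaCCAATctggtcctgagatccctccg
Ebp (chrX:8193543-8193702, - strand): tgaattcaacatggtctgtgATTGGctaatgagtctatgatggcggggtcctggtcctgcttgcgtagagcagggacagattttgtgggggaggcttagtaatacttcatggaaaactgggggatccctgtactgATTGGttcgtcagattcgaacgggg
Insig1 (chr5:28071176-28071220, + strand): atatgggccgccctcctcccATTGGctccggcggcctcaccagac
Msmo1 (chr8:64733609-64733758, - strand): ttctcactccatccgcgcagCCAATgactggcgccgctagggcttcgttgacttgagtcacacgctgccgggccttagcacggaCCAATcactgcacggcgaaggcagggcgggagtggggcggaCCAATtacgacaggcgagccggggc
Nsdhl (chrX:72918392-72918520, + strand): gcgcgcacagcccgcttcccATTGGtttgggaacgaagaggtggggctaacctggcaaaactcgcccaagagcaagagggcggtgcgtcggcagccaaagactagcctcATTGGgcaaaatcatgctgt
Srebf2 (chr15:82147114-82147158, + strand): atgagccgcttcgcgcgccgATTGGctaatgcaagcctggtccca
The distance from the first printed base to the start ranged from 49 bases for Cyp51 to 236 bases for Insig1. Msmo1 has 3 boxes in its stretch, Ebp and Nsdhl have 2 each, and the others have 1.

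The regulators changed unequally. Srebf2 (ENSMUSG00000022463), which encodes SREBP-2, was at 7.35, 7.25 and 7.23 log2 CPM in Rag_SPIC_noDOX, 8.54, 8.14 and 8.27 in Rag_SPIC_DOX, 8.77, 8.76 and 8.81 in Rag_SPIC_DOX_shBCLAF1, 7.45, 7.38 and 7.95 in Art and 9.12, 9.04 and 9.13 in Art_shBCLAF1. Its values in Rag_SPIC_DOX all lay above those in Rag_SPIC_noDOX and below those in Rag_SPIC_DOX_shBCLAF1, and the Art_shBCLAF1 values were the highest of all. Srebf2 rose with doxycycline (1.04, SE 0.11, adjusted p = 0.00607), rose with the hairpin label in Rag cells (0.46, SE 0.11, adjusted p = 0.0117) and rose more in Art cells (1.50, SE 0.17, adjusted p = 0.000993). Without Rag_SPIC_noDOX replicates 1 and 3 the doxycycline difference of Srebf2 was 1.08, adjusted p = 0.062 and 1.02, adjusted p = 0.0705, which did not pass.

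Srebf1 (ENSMUSG00000020538), which encodes SREBP-1, was at 6.78, 6.77 and 6.77 log2 CPM in Rag_SPIC_noDOX, 7.19, 6.65 and 6.89 in Rag_SPIC_DOX, 7.82, 7.82 and 7.78 in Rag_SPIC_DOX_shBCLAF1, 6.86, 6.86 and 7.55 in Art and 8.58, 8.37 and 8.54 in Art_shBCLAF1. In Rag_SPIC_DOX its replicate 2 lay below Rag_SPIC_noDOX and the other libraries above it, so these groups overlapped. The difference with doxycycline did not pass (0.13, SE 0.13, adjusted p = 0.487), and without Rag_SPIC_DOX replicate 1 it was -0.01, adjusted p = 0.964. Srebf1 rose with the hairpin label in Rag cells (0.90, SE 0.13, adjusted p = 0.0025) and in Art cells (1.4, SE 0.21, adjusted p = 0.00259), where no value of the labelled group overlapped the other.

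Insig1 (ENSMUSG00000045294), the retention factor whose own gene is a classic SREBP target, was at 3.97, 3.83 and 3.85 log2 CPM in Rag_SPIC_noDOX, 5.31, 5.02 and 5.24 in Rag_SPIC_DOX, 6.61, 6.51 and 6.58 in Rag_SPIC_DOX_shBCLAF1, 4.56, 4.55 and 4.70 in Art and 5.73, 5.78 and 5.58 in Art_shBCLAF1. Its values did not overlap between any pair of adjacent Rag groups, and Art lay between Rag_SPIC_noDOX and Rag_SPIC_DOX. Insig1 rose with doxycycline (1.30, SE 0.11, adjusted p = 0.00383), with the label in Rag cells (1.38, SE 0.09, adjusted p = 0.00022) and with the label in Art cells (1.09, SE 0.12, adjusted p = 0.000888). It was also higher in Art than in Rag_SPIC_noDOX (0.72, SE 0.12, adjusted p = 0.0287), a call lost without any 1 library other than Art replicate 3. The change over both steps in the Rag line was 6.40-fold (2.68, SE 0.06, adjusted p = 3.76e-16).

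Scap, the escort of the SREBP proteins, was at 7.19, 7.12 and 7.11 log2 CPM in Rag_SPIC_noDOX, 7.32, 7.22 and 7.28 in Rag_SPIC_DOX, 8.27, 8.34 and 8.30 in Rag_SPIC_DOX_shBCLAF1, 7.55, 7.50 and 8.24 in Art and 7.94, 7.90 and 7.96 in Art_shBCLAF1. Its level was close in the Rag groups without the hairpin and higher in Rag_SPIC_DOX_shBCLAF1, while in Art its replicate 3 was the highest library of both Art groups. Scap rose with the label in Rag cells (1.03, SE 0.06, adjusted p = 0.000155) and did not pass in Art cells (0.17, SE 0.21, adjusted p = 0.538), where it rose without Art replicate 3 (0.41, adjusted p = 5.06e-05). Insig2, the second retention factor, was at 5.10, 5.25 and 5.19 log2 CPM in Rag_SPIC_noDOX, 5.13, 5.20 and 5.04 in Rag_SPIC_DOX, 4.77, 4.83 and 4.73 in Rag_SPIC_DOX_shBCLAF1, 5.26, 5.36 and 5.32 in Art and 4.95, 5.05 and 4.98 in Art_shBCLAF1. The labelled libraries were below the others of their line, with no overlap. Insig2 fell with the label in Rag cells (-0.35, SE 0.07, adjusted p = 0.00908), and its difference in Art cells did not pass (-0.32, SE 0.11, adjusted p = 0.0507) but passed without Art replicate 3 (-0.32, adjusted p = 0.00241). Insig1 and Insig2 thus had opposite signs under the label in both lines.

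**Figure D2:**
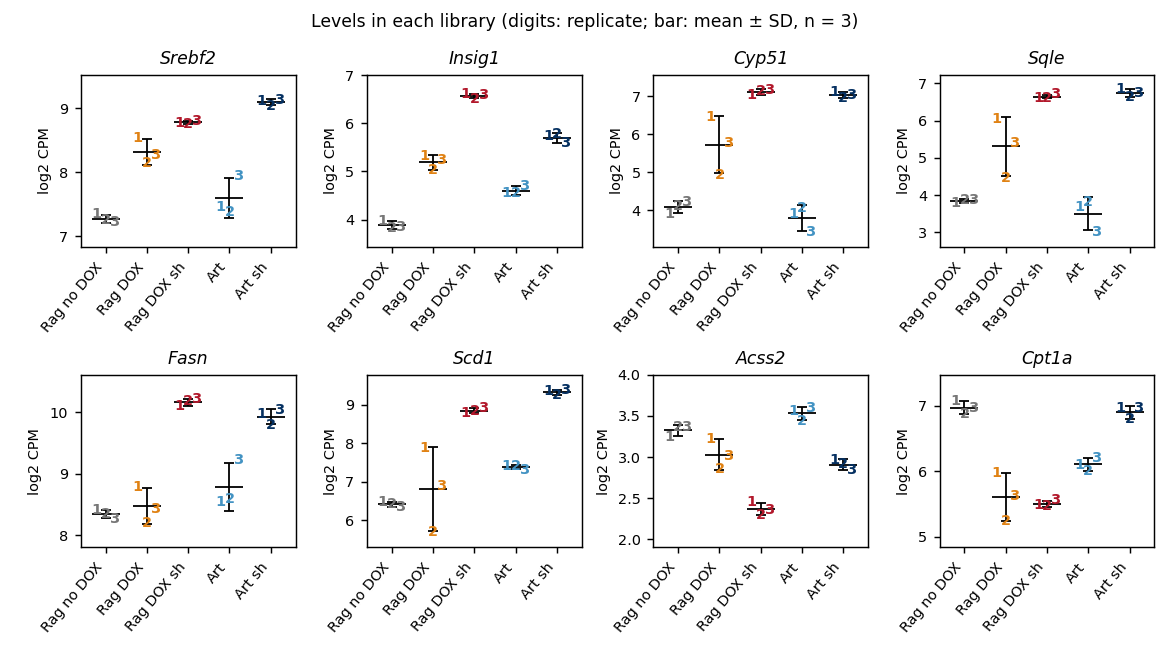
Levels of 8 of the genes in log2 CPM (vertical) in the 5 groups (horizontal). Digits are the replicates and bars the mean ± SD (n = 3), and in Cyp51, Sqle and Scd1 the Rag_SPIC_DOX replicates are spread in the order 1, 3, 2.

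The 6 measured enzymes of the mevalonate arm turn acetyl-CoA into farnesyl diphosphate. With doxycycline limma called 0 of them (2 higher at an unadjusted p below 0.05), and 5 rose without Rag_SPIC_DOX replicate 2. With the hairpin label Acat2 and Idi1 rose in Rag cells, and Acat2, Mvk, Pmvk, Idi1 and Fdps rose in Art cells, with log2 fold changes of the arm from 0.39 to 2.01 and from 0.75 to 3.98. That is 33.3% of the arm in Rag cells, near the 28.5% of all genes, and 83.3% in Art cells, against 25.0%. The count in Rag cells was 6 without Rag_SPIC_DOX replicate 1 and 1 without Rag_SPIC_DOX replicate 3 or any 1 labelled library. Relative to Rag_SPIC_noDOX all 6 rose in Rag_SPIC_DOX_shBCLAF1, where 41.0% of all genes were called higher.

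Fdps, farnesyl diphosphate synthase, was at 2.88, 2.66 and 2.90 log2 CPM in Rag_SPIC_noDOX, 4.67, 2.95 and 4.26 in Rag_SPIC_DOX, 4.86, 4.76 and 4.64 in Rag_SPIC_DOX_shBCLAF1, 2.84, 2.78 and 2.65 in Art and 5.74, 5.53 and 5.52 in Art_shBCLAF1. Its Rag_SPIC_DOX libraries ran from just above Rag_SPIC_noDOX in replicate 2 to the level of the labelled Rag group, which replicate 1 overlapped, and Art_shBCLAF1 lay above every other library. Fdps rose 7.17-fold with the label in Art cells (2.84, SE 0.14, adjusted p = 8e-05) and did not pass in Rag cells (0.79, SE 0.41, adjusted p = 0.144) or with doxycycline (1.15, SE 0.40, adjusted p = 0.097).

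Idi1, isopentenyl-diphosphate isomerase, had few reads: 4, 14 and 12 in Rag_SPIC_noDOX, 44, 13 and 39 in Rag_SPIC_DOX, 128, 124 and 138 in Rag_SPIC_DOX_shBCLAF1, 6, 12 and 0 in Art and 117, 65 and 62 in Art_shBCLAF1. In log2 CPM the labelled groups did not overlap the groups without the hairpin. Idi1 rose with the label in Rag cells (2.01, SE 0.45, adjusted p = 0.0106) and in Art cells (3.98, SE 0.75, adjusted p = 0.00598), and the size of the latter depends on the 0.5 added to the 0 reads of Art replicate 3. Without that library it was 3.21, adjusted p = 2.21e-05. Acat2, the cytosolic thiolase of the first step, was at 3.03, 3.06 and 2.93 log2 CPM in Rag_SPIC_noDOX, 4.15, 3.22 and 3.87 in Rag_SPIC_DOX, 4.58, 4.46 and 4.42 in Rag_SPIC_DOX_shBCLAF1, 2.80, 2.98 and 3.38 in Art and 4.93, 4.53 and 4.87 in Art_shBCLAF1. Acat2 overlapped between no pair of labelled and unlabelled groups of the same line, and it rose with the label in Rag cells (0.74, SE 0.23, adjusted p = 0.0332) and in Art cells (1.72, SE 0.20, adjusted p = 0.00109).

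Of the 11 enzymes that make squalene and cholesterol, 5 rose with doxycycline, 8 rose and 1 fell with the label in Rag cells, and 9 rose and 1 fell with the label in Art cells. The share that rose with doxycycline was 45.5%, against 3.16% of all genes. With the label 72.7% rose and 9.09% fell in Rag cells, against 28.5% and 25.1% of all genes. In Art cells 81.8% rose and 9.09% fell, against 25.0% and 24.1%. The shares that fell with the label were below those of all genes. The medians were 0.56, 0.73 and 1.32. The doxycycline count was 9 without Rag_SPIC_DOX replicate 2 and 0, 0, 1 and 0 by limma (6, 6, 6 and 5 at an unadjusted p below 0.05) without Rag_SPIC_DOX replicate 3 and Rag_SPIC_noDOX replicates 1, 2 and 3, while the label count in Rag cells was 4 without Rag_SPIC_DOX replicate 3 or any 1 labelled library. Against Rag_SPIC_noDOX, 10 of 11 (90.9%) rose in Rag_SPIC_DOX_shBCLAF1, where 41.0% of all genes were called higher.

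Cyp51 (ENSMUSG00000001467), lanosterol demethylase, was at 3.91, 4.12 and 4.22 log2 CPM in Rag_SPIC_noDOX, 6.46, 4.94 and 5.78 in Rag_SPIC_DOX, 7.03, 7.13 and 7.17 in Rag_SPIC_DOX_shBCLAF1, 3.90, 4.07 and 3.43 in Art and 7.10, 6.94 and 7.04 in Art_shBCLAF1. The Rag_SPIC_DOX values spread widely, but none overlapped Rag_SPIC_noDOX or the labelled group. Cyp51 rose with doxycycline (1.64, SE 0.34, adjusted p = 0.028) and with the label in Rag cells (1.38, SE 0.35, adjusted p = 0.0162), and over both steps it rose 8.15-fold (3.03, SE 0.07, adjusted p = 4.91e-16). In Art cells it rose 9.37-fold with the label (3.23, SE 0.19, adjusted p = 0.00013), to nearly the same level as in Rag_SPIC_DOX_shBCLAF1.

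Sqle (ENSMUSG00000022351), the rate-limiting squalene epoxidase, was at 3.79, 3.88 and 3.87 log2 CPM in Rag_SPIC_noDOX, 6.05, 4.46 and 5.41 in Rag_SPIC_DOX, 6.61, 6.62 and 6.71 in Rag_SPIC_DOX_shBCLAF1, 3.69, 3.81 and 3.0 in Art and 6.84, 6.64 and 6.75 in Art_shBCLAF1. As for Cyp51, no Rag group overlapped another, and Art replicate 3 was the lowest library of the 15. Sqle rose with doxycycline (1.46, SE 0.35, adjusted p = 0.0407), with the label in Rag cells (1.34, SE 0.37, adjusted p = 0.0218) and with the label in Art cells (3.25, SE 0.23, adjusted p = 0.000199). Msmo1, the sterol methyl oxidase, was at 3.07, 3.56 and 3.11 log2 CPM in Rag_SPIC_noDOX, 5.29, 4.38 and 4.75 in Rag_SPIC_DOX, 5.63, 5.81 and 5.82 in Rag_SPIC_DOX_shBCLAF1, 3.77, 3.80 and 1.95 in Art and 6.12, 5.83 and 5.97 in Art_shBCLAF1. Msmo1 also followed that order, and its Art replicate 3 was far below the other Art libraries. It rose with doxycycline (1.56, SE 0.24, adjusted p = 0.0146), with the label in Rag cells (0.95, SE 0.22, adjusted p = 0.0119) and with the label in Art cells (2.80, SE 0.50, adjusted p = 0.00492), where the difference without Art replicate 3 was 2.19, adjusted p = 4.95e-09.

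Nsdhl, which acts with Msmo1 to remove sterol methyl groups, and Ebp, the sterol isomerase, rose with doxycycline by 0.91 and 0.50. Lss, Sc5d and Dhcr7, which make lanosterol and carry out late steps, had differences of 0.16 to 0.74 that did not pass with doxycycline, and rose with the label in both lines by 0.73 to 1.52. Hsd17b7, a sterol ketone reductase, rose with the label in Rag cells (0.59, SE 0.12, adjusted p = 0.00871). Fdft1, the squalene synthase that commits farnesyl diphosphate to sterols, did not pass with doxycycline or with the label in Rag cells and rose in Art cells (0.84, SE 0.23, adjusted p = 0.0221).

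Tm7sf2, a sterol reductase whose activity is shared with the lamin B receptor Lbr, went the other way. It was at 5.21, 4.97 and 5.15 log2 CPM in Rag_SPIC_noDOX, 4.72, 5.03 and 4.49 in Rag_SPIC_DOX, 4.39, 4.26 and 4.07 in Rag_SPIC_DOX_shBCLAF1, 5.24, 5.26 and 6.32 in Art and 3.95, 4.03 and 4.02 in Art_shBCLAF1. The labelled groups were the lowest, and Art replicate 3 was the highest library. Tm7sf2 fell with the label in Rag cells (-0.51, SE 0.15, adjusted p = 0.0313) and in Art cells (-1.61, SE 0.30, adjusted p = 0.00614), in the latter by 1.25 without Art replicate 3. The call in Rag cells was lost without any 1 labelled library.

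Stard4, a soluble carrier that moves cholesterol between membranes, was at 5.49, 5.68 and 5.64 log2 CPM in Rag_SPIC_noDOX, 6.38, 5.90 and 6.21 in Rag_SPIC_DOX, 6.85, 6.88 and 6.89 in Rag_SPIC_DOX_shBCLAF1, 5.72, 5.75 and 5.30 in Art and 7.46, 7.30 and 7.45 in Art_shBCLAF1. No Rag group overlapped another, and the Art_shBCLAF1 values were the highest. Stard4 rose with doxycycline (0.56, SE 0.13, adjusted p = 0.0361), with the label in Rag cells (0.71, SE 0.12, adjusted p = 0.00423) and with the label in Art cells (1.81, SE 0.16, adjusted p = 0.000372).

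Of the 10 fatty-acid genes, 1 rose with doxycycline, 8 rose and 2 fell with the label in Rag cells, and 8 rose and 1 fell with the label in Art cells. Of all genes, 3.16% rose with doxycycline. With the label, 28.5% of all genes rose and 25.1% fell in Rag cells, and 25.0% rose and 24.1% fell in Art cells. The shares of this arm that rose with the label were thus above those of all genes, and the shares that fell were below them. The medians of the arm were 0.37, 1.56 and 1.82. Acly, the 1 that rose with doxycycline, makes the cytosolic acetyl-CoA that both pathways use. The doxycycline count was 6 without Rag_SPIC_DOX replicate 2 and 0 by limma (2 at an unadjusted p below 0.05) without Rag_SPIC_DOX replicate 3 or any 1 Rag_SPIC_noDOX library, and the label count in Rag cells was 5 without Rag_SPIC_DOX replicate 3 or Rag_SPIC_DOX_shBCLAF1 replicate 3.

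Acly was at 7.80, 7.80 and 7.74 log2 CPM in Rag_SPIC_noDOX, 8.67, 8.16 and 8.49 in Rag_SPIC_DOX, 8.86, 8.91 and 8.87 in Rag_SPIC_DOX_shBCLAF1, 7.92, 7.99 and 8.08 in Art and 9.35, 9.17 and 9.35 in Art_shBCLAF1. Its groups in the Rag line did not overlap, and both labelled groups exceeded every library without the hairpin. Acly rose with doxycycline (0.66, SE 0.13, adjusted p = 0.0233), with the label in Rag cells (0.44, SE 0.13, adjusted p = 0.0269) and with the label in Art cells (1.29, SE 0.12, adjusted p = 0.000406). Acaca, acetyl-CoA carboxylase, which commits acetyl-CoA to fatty acids, rose with the label in Rag cells (1.51, SE 0.28, adjusted p = 0.00556) and in Art cells (2.09, SE 0.20, adjusted p = 0.000529).

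Fasn (ENSMUSG00000025153), fatty-acid synthase, was at 8.41, 8.35 and 8.27 log2 CPM in Rag_SPIC_noDOX, 8.79, 8.20 and 8.43 in Rag_SPIC_DOX, 10.10, 10.19 and 10.21 in Rag_SPIC_DOX_shBCLAF1, 8.54, 8.59 and 9.23 in Art and 9.97, 9.79 and 10.04 in Art_shBCLAF1. Rag_SPIC_DOX overlapped Rag_SPIC_noDOX, and all 6 labelled libraries lay above the other 9. Fasn did not pass with doxycycline (0.13, SE 0.14, adjusted p = 0.542) and rose with the label by 3.23-fold in Rag cells (1.69, SE 0.15, adjusted p = 0.00052) and 2.21-fold in Art cells (1.15, SE 0.21, adjusted p = 0.00545). Elovl6, which elongates palmitate, was at 5.29, 5.45 and 5.38 log2 CPM in Rag_SPIC_noDOX, 6.04, 5.45 and 5.59 in Rag_SPIC_DOX, 7.50, 7.62 and 7.69 in Rag_SPIC_DOX_shBCLAF1, 5.53, 5.66 and 4.63 in Art and 7.85, 7.77 and 7.83 in Art_shBCLAF1. It showed the same split between labelled and other libraries and rose with the label in Rag cells (1.91, SE 0.15, adjusted p = 0.000385) and in Art cells (2.54, SE 0.28, adjusted p = 0.000804).

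The stearoyl-CoA desaturase genes Scd1 and Scd2 introduce the double bond of oleate and are close paralogs, so reads shared between them could shift counts from one to the other. Scd1 was at 6.46, 6.42 and 6.34 log2 CPM in Rag_SPIC_noDOX, 7.87, 5.69 and 6.89 in Rag_SPIC_DOX, 8.80, 8.83 and 8.92 in Rag_SPIC_DOX_shBCLAF1, 7.42, 7.41 and 7.31 in Art and 9.35, 9.26 and 9.38 in Art_shBCLAF1, and Rag_SPIC_DOX replicate 2 lay below every library of Rag_SPIC_noDOX. Scd2 was at 8.52, 8.44 and 8.42 log2 CPM in Rag_SPIC_noDOX, 9.10, 7.43 and 8.33 in Rag_SPIC_DOX, 9.94, 9.97 and 10.00 in Rag_SPIC_DOX_shBCLAF1, 7.89, 7.93 and 7.67 in Art and 10.93, 10.81 and 10.89 in Art_shBCLAF1, with Art below Rag_SPIC_noDOX. Scd1 rose with the label in Rag cells (2.03, SE 0.49, adjusted p = 0.0146) and in Art cells (1.95, SE 0.10, adjusted p = 0.000102), and was higher in Art than in Rag_SPIC_noDOX (0.97, SE 0.10, adjusted p = 0.0112). Scd2 rose with the label in Rag cells (1.68, SE 0.38, adjusted p = 0.0111) and in Art cells (3.04, SE 0.12, adjusted p = 6.67e-05), and was lower in Art than in Rag_SPIC_noDOX (-0.63, SE 0.11, adjusted p = 0.0344). Both differences between the lines were lost without any 1 library other than Art replicate 3. Neither gene passed with doxycycline.

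Fads1 and Fads2, desaturases of polyunsaturated fatty acids, did not pass with doxycycline. Fads2 was at 4.70, 4.53 and 4.53 log2 CPM in Rag_SPIC_noDOX, 5.99, 4.73 and 5.41 in Rag_SPIC_DOX, 6.95, 6.98 and 7.06 in Rag_SPIC_DOX_shBCLAF1, 4.37, 4.29 and 4.77 in Art and 7.38, 7.25 and 7.36 in Art_shBCLAF1. The labelled groups of both lines lay above all other libraries. Fads2 rose with the label in Rag cells (1.62, SE 0.29, adjusted p = 0.0049) and in Art cells (2.85, SE 0.16, adjusted p = 0.000111), and Fads1 rose by 0.62 and 1.69.

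Acss2, which makes acetyl-CoA from acetate, and Elovl5, which elongates polyunsaturated fatty acids, did not rise. Acss2 was at 3.24, 3.37 and 3.36 log2 CPM in Rag_SPIC_noDOX, 3.22, 2.85 and 3.01 in Rag_SPIC_DOX, 2.45, 2.30 and 2.36 in Rag_SPIC_DOX_shBCLAF1, 3.56, 3.44 and 3.60 in Art and 2.96, 2.92 and 2.84 in Art_shBCLAF1. Its labelled libraries were below the others of their line, with no overlap. It fell with the label in Rag cells (-0.66, SE 0.13, adjusted p = 0.00771) and in Art cells (-0.63, SE 0.14, adjusted p = 0.0103), the latter call being lost without Art_shBCLAF1 replicate 3. Elovl5 was at 8.20, 8.29 and 8.15 log2 CPM in Rag_SPIC_noDOX, 8.06, 8.23 and 8.11 in Rag_SPIC_DOX, 7.50, 7.55 and 7.53 in Rag_SPIC_DOX_shBCLAF1, 7.95, 7.88 and 7.47 in Art and 7.84, 7.90 and 7.85 in Art_shBCLAF1. The Rag groups with and without the label did not overlap, and the Art groups did. It fell with the label in Rag cells (-0.60, SE 0.06, adjusted p = 0.000866) and did not pass in Art cells (0.10, SE 0.15, adjusted p = 0.63).

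Cpt1a (ENSMUSG00000024900), the gate through which long-chain fatty acids enter mitochondria for oxidation, was at 7.07, 6.88 and 6.96 log2 CPM in Rag_SPIC_noDOX, 5.97, 5.24 and 5.62 in Rag_SPIC_DOX, 5.49, 5.47 and 5.56 in Rag_SPIC_DOX_shBCLAF1, 6.10, 6.01 and 6.20 in Art and 6.96, 6.79 and 6.96 in Art_shBCLAF1. The Rag_SPIC_DOX and Rag_SPIC_DOX_shBCLAF1 groups lay below Rag_SPIC_noDOX with no overlap, and Art_shBCLAF1 overlapped Rag_SPIC_noDOX. Cpt1a fell 2.57-fold with doxycycline (-1.36, SE 0.17, adjusted p = 0.00891) and did not pass with the label in Rag cells (-0.10, SE 0.17, adjusted p = 0.636), where it was 0.08, adjusted p = 0.573 without Rag_SPIC_DOX replicate 1. It rose with the label in Art cells (0.80, SE 0.12, adjusted p = 0.00228) and was lower in Art than in Rag_SPIC_noDOX (-0.86, SE 0.11, adjusted p = 0.0167), a call lost without any 1 library other than Art replicate 3. The doxycycline call was lost without Rag_SPIC_DOX replicate 3 or Rag_SPIC_noDOX replicate 1 or 3 (-1.31, adjusted p = 0.0775 without the latter's replicate 1).

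**Figure D3:**
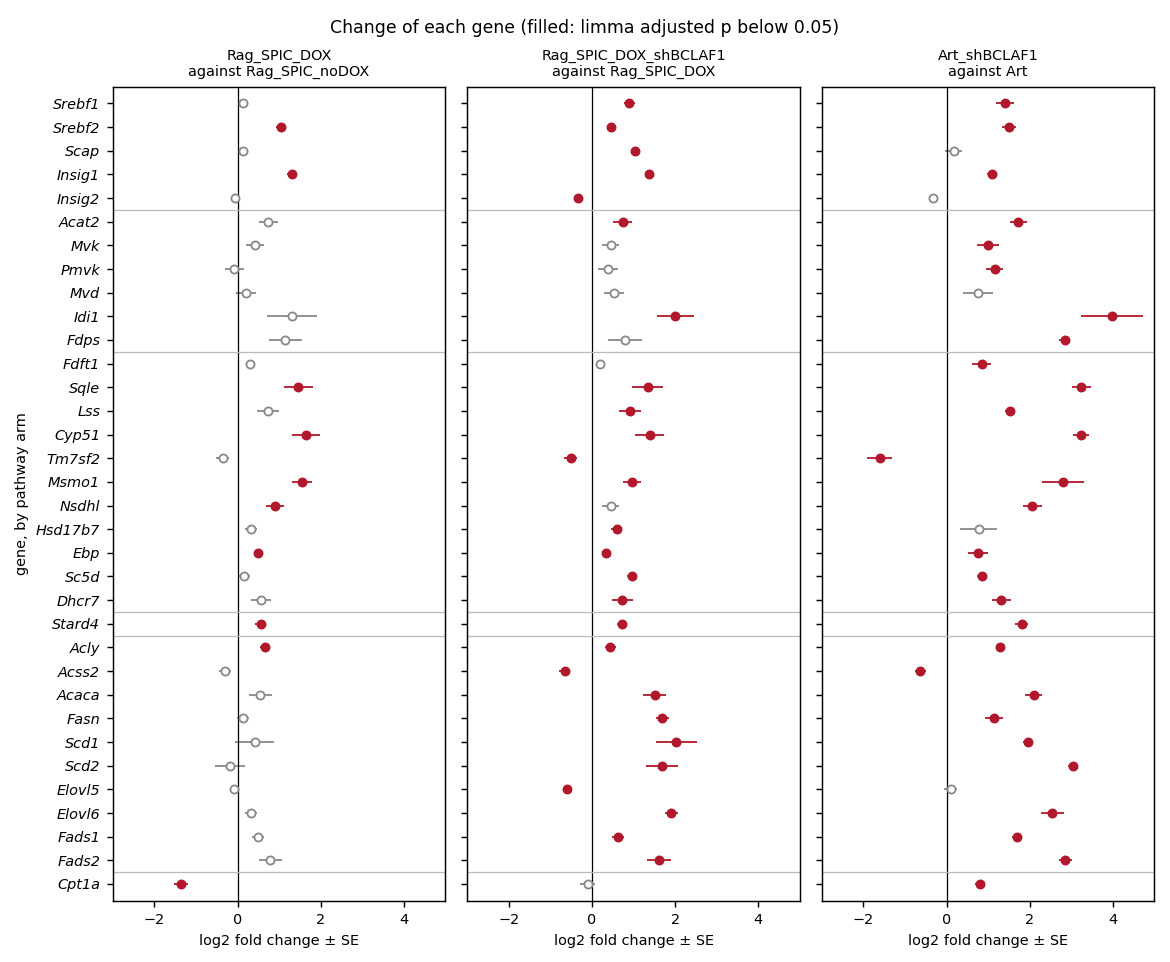
Log2 fold change ± SE (horizontal) of each of the 34 genes (vertical, by arm) in 3 comparisons, filled where the limma adjusted p was below 0.05. The filled points above 0 number 9, 23 and 27 from left to right.

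The Rag_SPIC_DOX libraries differed among themselves more in these genes than elsewhere in the tables. For 30 of the 34 genes (88.2%) the order was replicate 1, then 3, then 2, from highest to lowest, against 33.5% of all genes. The median range over these 3 libraries was 0.67 log2 units over the 34 genes and 0.34 over all genes. In Rag_SPIC_noDOX, Rag_SPIC_DOX_shBCLAF1 and Art_shBCLAF1 the median range of the 34 genes was 0.16, 0.10 and 0.17, and in Art, with its outlying replicate 3, it was 0.63. The gap between replicates 1 and 2 of Rag_SPIC_DOX was widest for Scd1 (2.18), Fdps (1.72) and Scd2 (1.66). The 4 genes outside that order were Insig2, Ebp, Tm7sf2 and Elovl5. Myc, which encodes a growth factor-responsive transcription factor, was at 8.06, 3.76 and 6.83 log2 CPM in replicates 1 to 3 of Rag_SPIC_DOX, and Spic was at 3.72, 4.59 and 4.31. The mean of Myc was 5.60 in Rag_SPIC_noDOX, 6.21 in Rag_SPIC_DOX, 9.21 in Rag_SPIC_DOX_shBCLAF1, 4.07 in Art and 8.79 in Art_shBCLAF1, so it was higher in the labelled group of both lines. The part of Myc or Spic in this order, or in the changes with the label, was not tested.

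The difference between the hairpin-label effects in the Rag and Art lines was tested with an interaction term over 12 libraries. Of the 34 genes, 14 had a smaller or more negative change in Rag cells, 2 had a larger or less negative change, and 18 did not pass. Over all genes, 17.0% had a positive and 14.3% a negative interaction, and the median was -0.64 over the 34 genes and -0.03 over all genes. Without Art replicate 3, 20 were negative and 2 positive, and 11 of the 16 calls were made in each of the 12 fits that left out 1 library.

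Fdps (-2.05, SE 0.47, adjusted p = 0.00804), Sqle (-1.91, SE 0.47, adjusted p = 0.0114), Msmo1 (-1.85, SE 0.59, adjusted p = 0.0354) and Cyp51 (-1.84, SE 0.43, adjusted p = 0.00841) had the most negative interactions among the genes that passed, and Acat2, Stard4 and Srebf2 were at -0.98, -1.10 and -1.04. Among fatty-acid genes, Scd2 (-1.36), Fads2 (-1.24) and Fads1 (-1.06) passed, while Fasn (0.55), Scd1 (0.08) and Elovl6 (-0.63) did not. Cpt1a had an interaction of -0.90, from a rise in Art cells and a change in Rag cells that did not pass. The positive interactions were Scap (0.85, SE 0.23, adjusted p = 0.0168) and Tm7sf2 (1.10, SE 0.37, adjusted p = 0.0418), the latter from a deeper fall in Art cells. The calls of Acat2, Tm7sf2, Msmo1, Scd2 and Fads2 were lost in at least 1 of the fits without 1 library. Scap was the 1 positive call left without Rag_SPIC_DOX replicate 1 or 3 or any 1 library of the labelled groups. Both Rag groups of this test had DOX and a SPIC construct and the labels name neither for the Art groups, so a difference of line and one of DOX cannot be told apart.

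**Figure D4:**
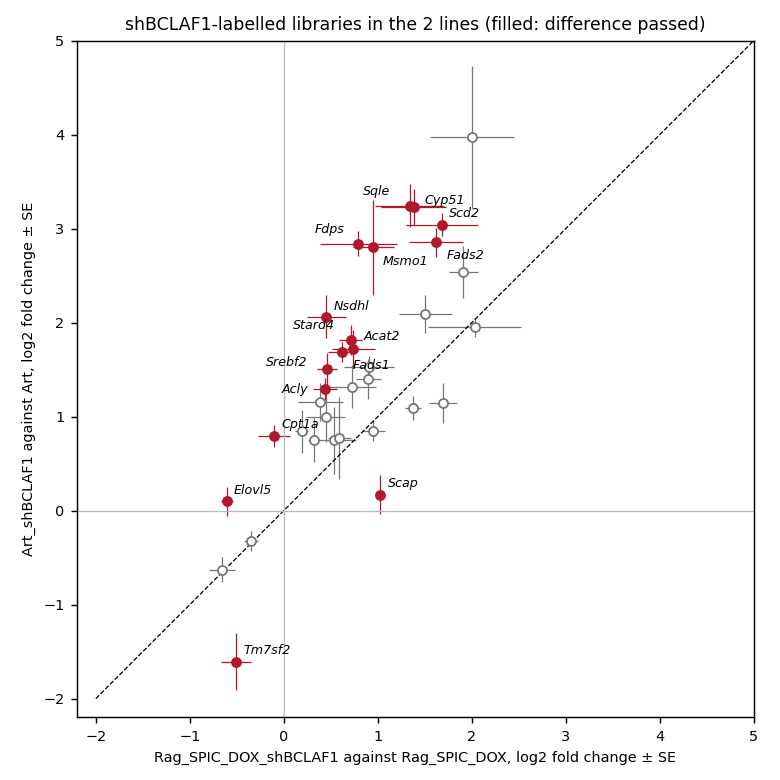
Log2 fold change ± SE of the 34 genes with the hairpin label in Rag cells (horizontal) and in Art cells (vertical), filled where the interaction passed. Fdps, Sqle, Cyp51 and Msmo1 are among the 14 filled genes with a larger value in Art cells.

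Other genes of these pathways were counted from lists that do not overlap the 34. Of 18 further sterol-pathway and SREBP-processing genes, 4 rose with doxycycline, 5 rose and 5 fell with the label in Rag cells, and 6 rose and 2 fell with the label in Art cells. The 4 are 22.2% of the list, against 3.16% of all genes. The shares with the label in Rag cells, 27.8% in each direction, are near the 28.5% and 25.1% of all genes, and those in Art cells are 33.3% and 11.1% against 25.0% and 24.1%. Acsl3, which activates long-chain fatty acids, was at 2.91, 3.27 and 3.38 log2 CPM in Rag_SPIC_noDOX, 4.30, 3.79 and 3.95 in Rag_SPIC_DOX, 5.48, 5.54 and 5.63 in Rag_SPIC_DOX_shBCLAF1, 3.53, 3.55 and 1.82 in Art and 6.30, 6.26 and 6.27 in Art_shBCLAF1. The Rag groups of Acsl3 did not overlap, every labelled library exceeded every other, and Art replicate 3 was the lowest. Acsl3 rose with doxycycline (0.83, SE 0.18, adjusted p = 0.033), with the label in Rag cells (1.54, SE 0.14, adjusted p = 0.000545) and with the label in Art cells (3.31, SE 0.47, adjusted p = 0.00205). The doxycycline call was lost without Rag_SPIC_DOX replicate 3 or any 1 Rag_SPIC_noDOX library, with Acsl3 at 0.69, adjusted p = 0.137 without replicate 1 of the latter. Without Rag_SPIC_DOX replicate 2, 8 of the 18 rose with doxycycline, and without replicate 3 or Rag_SPIC_noDOX replicates 1, 2 and 3 the count was 0, 0, 1 and 0 by limma (8, 7, 8 and 8 at an unadjusted p below 0.05). The number that fell with the label in Rag cells was 2 without Rag_SPIC_DOX replicate 3 or any 1 labelled library, and without Art replicate 3 there were 8 that rose and 7 that fell with the label in Art cells. It was 1 that fell there without any 1 Art_shBCLAF1 library.

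Of 9 genes of the liver X receptors, which sense sterol excess, and of cholesterol export, 1 fell with doxycycline, 4 rose and 3 fell with the label in Rag cells, and 2 rose and 5 fell with the label in Art cells. These are 11.1% lower with doxycycline against 8.67% of all genes, 44.4% and 33.3% with the label in Rag cells against 28.5% and 25.1%, and 22.2% and 55.6% in Art cells against 25.0% and 24.1%. Abca1, the cholesterol exporter, was at 5.20, 5.36 and 5.38 log2 CPM in Rag_SPIC_noDOX, 3.81, 4.97 and 4.26 in Rag_SPIC_DOX, 1.92, 1.67 and 1.34 in Rag_SPIC_DOX_shBCLAF1, 5.29, 5.39 and 3.72 in Art and 1.16, 1.59 and 1.38 in Art_shBCLAF1. Its labelled libraries were the lowest of all 15 in both lines. Abca1 fell with the label in Rag cells (-2.71, SE 0.31, adjusted p = 0.0011) and in Art cells (-3.42, SE 0.46, adjusted p = 0.00169), and its difference with doxycycline did not pass (-0.97, SE 0.26, adjusted p = 0.055). Mylip, a ubiquitin ligase that liver X receptors induce, fell by 0.57 and 1.82 with the label in Rag and Art cells. Abcg1, another exporter, fell with doxycycline (-0.86, SE 0.12, adjusted p = 0.0104), rose with the label in Rag cells (0.43, SE 0.12, adjusted p = 0.0248) and fell with it in Art cells (-1.30, SE 0.17, adjusted p = 0.00146), and the interaction was 1.73, SE 0.22, adjusted p = 0.000264. With the label in Rag cells 1 rose and 1 fell without Rag_SPIC_DOX_shBCLAF1 replicate 3, 2 rose and 1 fell without its replicate 2 or Rag_SPIC_DOX replicate 3, 2 rose and 2 fell without its replicate 1, and 4 rose and 5 fell without Rag_SPIC_DOX replicate 1. With doxycycline 4 fell and 2 rose without Rag_SPIC_DOX replicate 2, and 3 fell without its replicate 1.

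Of 10 further genes of fatty-acid synthesis and elongation, 7 rose and 3 fell with the label in Rag cells, and 5 rose and 3 fell in Art cells. That is 70.0% and 30.0% of the list in Rag cells against 28.5% and 25.1% of all genes, and in Art cells the 5 higher and 3 lower of 10 stand against 25.0% and 24.1%. Hsd17b12 and Elovl1, which act in elongation, rose by 1.65 and 1.21 in Rag cells and by 2.67 and 1.61 in Art cells. Acacb, the carboxylase isoform that restrains fatty-acid oxidation, fell with doxycycline (-0.81, SE 0.19, adjusted p = 0.04), with the label in Rag cells (-2.07, SE 0.22, adjusted p = 0.000832) and with the label in Art cells (-1.95, SE 0.19, adjusted p = 0.000507). Gpam, which starts glycerolipid synthesis, fell by 0.64 and 2.18 with the label. The number that rose in Rag cells was 3 without Rag_SPIC_DOX replicate 3 or Rag_SPIC_DOX_shBCLAF1 replicate 1 or 3, and 4 without the latter's replicate 2. With doxycycline and every library in, limma called 0 of the 10 higher (4 at an unadjusted p below 0.05), against 3.16% of all genes. Acacb was the 1 lower (10.0%), against 8.67% of all genes. Without Rag_SPIC_DOX replicate 2, 4 rose with doxycycline, in a fit that also called many more genes over all genes.

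Of 12 mitochondrial fatty-acid oxidation genes, 1 rose and 6 fell with the label in Rag cells, and 5 rose in Art cells, where limma called 0 lower (0 at an unadjusted p below 0.05). Higher in Rag cells were 8.33%, against 28.5% of all genes, and the 6 lower of 12 stand against 25.1%, with 41.7% higher in Art cells against 25.0%. Hadh, Acadl and Echs1, enzymes of beta-oxidation, rose in Art cells by 1.49, 1.12 and 0.92. In Rag cells Decr1, Acadvl and Etfdh fell by 0.52, 0.51 and 0.48. The interaction was negative for 6 of the 12, among them Acadl (-1.06), Hadh (-1.04) and Echs1 (-0.998). Without Art replicate 3, 9 rose and 2 fell with the label in Art cells, and without Rag_SPIC_DOX_shBCLAF1 replicate 3 the number that fell in Rag cells was 2. It was 3 without Rag_SPIC_DOX replicate 3 or Rag_SPIC_DOX_shBCLAF1 replicate 1 or 2, and 3 rose in Art cells without Art_shBCLAF1 replicate 1 or 3. Without Rag_SPIC_DOX replicate 1, 3 rose in Rag cells.

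The authors' deposited tables list more of the 34 genes as changed than limma with equal library weights. With doxycycline, the authors' deposited table has 25 higher and 4 lower, and 5 are not listed. For the label the authors' deposited tables have 29 higher and 4 lower in Rag cells, and 30 higher and 3 lower in Art cells, with 1 not listed in each. For Art against Rag_SPIC_noDOX the authors' deposited table has 11 higher and 6 lower. With limma's array weights, which lower the part of libraries that stand apart, the doxycycline counts were 26 higher and 4 lower. The shares of all genes called in the same ways are not given here, so these counts are not read as a trait of the 34 genes. Every gene of the union passed the authors' threshold in at least 1 of these comparisons. The reason for the gap between the counts was not tested.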

How the data were processed

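Total RNA of 15 libraries was sequenced, 3 in each of 5 groups. The authors deposited 4 tables of their own comparisons, each with the log2 CPM of single libraries beside a log2 fold change, adjusted p-value and test scores, per the file headers. The submitters' processing notes list Subread, featureCounts 1.4.5, edgeR, limma and mm9, with no roles. A gene is in a table only with the authors' deposited adjusted p-value at or below 0.0499, and all listed genes are protein-coding. The tables were joined into 11551 genes, with 152 duplicate entries merged and 4 symbols that carry several identifiers. One Art replicate 3 column name differs from its title by a single character. All deposited log2 values under 1000 reads gave whole reads within 0.05 after 0.5 was taken off, and effective library sizes ran from 5.81 to 27.1 M reads, Art replicate 3 being the least precise. The sources used here do not say whether counting used strand or how it treated reads shared by near-identical copies.

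Each pair of groups was tested with limma 3.58.1 in R 4.3.3 on the deposited log2 CPM, with a trend in the prior, and the interaction on 12 libraries. Adjusted p-values are Benjamini-Hochberg over all genes, and the code was tested on simulated data. In each comparison the 3 genes of each arm or further list with the largest change among those that passed, and Srebf1, Srebf2, Insig1 and Cpt1a, could be named with full values. Values of other members, Insig2, Tm7sf2, Acss2 and Elovl5 among them, were added after they were seen. Some genes counted in the further lists are not reported here by name. The members and lists were chosen with earlier results of these data known. Alternatives were all libraries in 1 fit, array weights, median centring, a replicate block, a minimum mean of 1 log2 CPM, a pseudocount of 1, no trend, and each library left out in turn.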

Additional observations from a re-analysis of the deposited data

Results flagged for a closer look

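The change with the hairpin label differed between the Rag and Art lines, by the interaction term in limma (adjusted p below 0.05), in 16 of the 34 genes. It was negative for 41.2% and positive for 5.88% of the 34, against 14.3% and 17.0% of all genes. A difference of line and one of DOX cannot be told apart here. The interaction is the change in Rag cells minus that in Art cells on the log2 scale. It was -2.049 for Fdps, -1.906 for Sqle, -1.849 for Msmo1, -1.845 for Cyp51 and -1.61 for Nsdhl, all of which lead to cholesterol. It was -1.104 for the carrier Stard4, -1.04 for Srebf2 and -0.981 for Acat2. Among fatty-acid genes it was -1.36 for Scd2, -1.235 for Fads2, -1.064 for Fads1, -0.854 for Acly and -0.702 for Elovl5. Cpt1a was at -0.901. Scap, at 0.855, and Tm7sf2, at 1.098, had the opposite sign.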

How the results depend on the processing

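The counts that moved by more than 1.5 times were mostly those of comparisons with Rag_SPIC_DOX replicates or Art replicate 3 on one side. With doxycycline, the 9 genes called higher became 26 with array weights, 5 with no trend and 1 to 24 with a library left out, and the 1 called lower became 4 with array weights and 0 to 2 with a library left out. For the label in Rag cells the 23 called higher were 15 to 29 with a library left out, and for the label in Art cells the 2 called lower were 1 to 3. For Art against Rag_SPIC_noDOX, 11 were higher and 7 lower with array weights, and 0 to 10 and 0 to 7 with a library left out. The interaction had 6 positive and 25 negative calls with array weights, and 1 to 2 positive calls with a library left out. Without Rag_SPIC_DOX replicate 1, Srebf1 with doxycycline was at -0.007 (limma adjusted p = 0.964) and Cpt1a with the label in Rag cells at 0.077 (limma adjusted p = 0.573), both of opposite sign to the value with all libraries; over the libraries left out they ran from -0.007 to 0.265 and from -0.289 to 0.077. The cause was not tested.

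Centring libraries on their medians shifted the median of all genes by -0.10, -0.15, -0.23 and 0.13 for the label in Rag cells, both steps together, the label in Art cells and the interaction. Counts of the 34 genes were then 23 higher and 4 lower, 28 and 5, 24 and 3, and 2 and 13.

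Same-numbered libraries did not deviate together (correlations from -0.234 to 0.2), so the numbers were not taken as pairs. With a replicate block, 2 genes were higher with doxycycline, 1 was lower with the label in Art cells, 1 interaction was positive, and limma called 0 higher and 0 lower for Art against Rag_SPIC_noDOX (3 and 3 at an unadjusted p below 0.05). Depth limits Idi1 most, with 0 to 14 reads in Rag_SPIC_noDOX and Art.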
